A study of Mus musculus with 6 samples.

Results

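The genes described here are 10 genes of the NF-kB system: the 5 Rel family subunits Nfkb1, Nfkb2, Rel, Rela and Relb, and 5 genes of inhibitors and regulators that act back on them, Nfkbia, Nfkbie, Nfkbiz, Tnfaip3 and Bcl3. The last 5 are called inhibitors below as a group name only. All 10 genes were chosen by gene name, as members of this system, and were found among the 35237 genes of the Cufflinks table and among the 36536 entries of the ALEXA-Seq table. RNA-Seq had been done on 3 sets of bone marrow monocytes (BMDM) and 3 sets of brainstem microglia (BSM), sorted by FACS from C57BL/6 mice at 6 weeks of age, to find transcripts that tell monocytes entering the brain from microglia living there. Each set was pooled from several mice, and by the labels, male mice gave replicate 1 of both cell types and female mice gave the others. Both sorts took CD11b+ cells without Ly6G. The monocytes were CD45high and CD115+, and the microglia CD45low and CD115low.

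NF-kB is a dimer of Rel family proteins. In resting cells it is held in the cytoplasm by IkB proteins such as the product of Nfkbia, and signals from Toll-like, TNF and interleukin-1 receptors reach the IkB kinases, which mark IkB for destruction and free the dimer to enter the nucleus. Among the genes it switches on there are its own inhibitors, so that Nfkbia and Tnfaip3 RNA is often read as a sign of recent NF-kB activity, and in macrophages and microglia this circuit controls the inflammatory response.

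In the FPKM table (fragments of a gene scaled by the length of its exon model and by the mapped reads of the library) Nfkb1 was the member with the highest level in BMDM and was 4.42-fold higher there than in BSM, while Nfkbiz was 1.76-fold higher in BSM. Rel, Rela and Bcl3 had higher levels in every BMDM library than in any BSM library, whereas Nfkbia and Tnfaip3 overlapped between the cell types. Relative to the summed Rel family of the same library, the 5 inhibitors together stood 3.46-fold higher in BSM. In bulk RNA of sorted cells, fewer cells that express a gene and less RNA of it in each cell cannot be told apart.

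The libraries differed in ways that touch every value below. Summed over all genes, FPKM were 2.50-fold higher in BMDM than in BSM, and the median gene had a log2 fold change of 0.81 toward BMDM in the FPKM table and of 0.84 in the ALEXA-Seq table, so the change of each gene is also set against the median of its own fit. The sorts matched their labels: all 8 microglia markers were above an FPKM of 1 in every BSM library (sum 993 to 1126, against 17.6 to 20.3 in BMDM), and all 7 monocyte markers were above it in every BMDM library (sum 1583 to 3036, against 6.26 to 7.54). The purinergic receptor gene P2ry12 was at 180 ± 44.1 FPKM in BSM and 0.196 ± 0.143 in BMDM, Tmem119 at 16.3 ± 6.44 and 0.0497 ± 0.0362, the chemokine receptor gene Ccr2 at 0.262 ± 0.217 and 153 ± 15.4, and Ly6c2 was listed at 0 in BSM and at 20.1 ± 8.53 in BMDM (SD, n = 3 each). Granulocyte markers summed to 61.5, 523 and 103 FPKM in BMDM replicates 1, 2 and 3 and to at most 0.0940 in BSM, and lymphocyte markers to 0.530, 8.62 and 1.42 and at most 0.178. Perivascular macrophage markers summed to 113 to 159 in BMDM and 2.08 to 4.79 in BSM, with F13a1, which is also a monocyte marker, at 128 ± 24.6 in BMDM. Neuron markers stayed at or below 0.249 in all libraries, astrocyte markers at 5.32 to 9.54 in BSM, oligodendrocyte markers at 7.06 to 12.8 in BMDM, and endothelial markers at or below 3.87. BSM replicate 1 stood apart, with 472 of the 6364 tested genes (7.42%) listed at 0, against 51 to 115 in the other libraries. It is also the library for which the study's RNA quality sheet lists the least RNA and by far the lowest integrity score. The part of RNA quality in the values of this library, such as the low Rela and Nfkbie, was not tested.

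Several of these genes carry matches to the NF-kB consensus sequence close to their own start, which are shown here as background to the feedback. RefSeq promoter windows of the mouse build GRCm38.p6, 250 bases before to 50 bases after a start site, were at hand for 7 of the 10 genes (Nfkb1, Nfkbiz and Relb had none), and 6 of the 7 held at least 1 match to the NF-kB consensus of 10 bases on either strand, all but Rela. Of all 27025 genes with a window, 9.55% held a match. The capitals mark the match, each line reads 5′ to 3′ along the strand of the gene, and where 2 matches overlap the capitals cover both.
Nfkbia: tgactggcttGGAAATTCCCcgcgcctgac
Tnfaip3: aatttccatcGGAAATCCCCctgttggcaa
Tnfaip3: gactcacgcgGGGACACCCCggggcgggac
Nfkbie: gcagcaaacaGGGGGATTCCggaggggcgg
Rel: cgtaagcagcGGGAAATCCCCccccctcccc
Nfkb2: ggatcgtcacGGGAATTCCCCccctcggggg
The Nfkbia match begins 29 bases before the start site (chr12:55492657-55492686, minus strand). The Tnfaip3 matches begin 12 bases before it (chr10:19015403-19015432, minus strand) and 125 bases before it (chr10:19015516-19015545). Both lie in the same window, and the other Tnfaip3 window (chr10:19011914-19012213) held 0 matches. Nfkb2 has 3 windows, all with matches, and only 1 stretch is shown. The Nfkbie match lies 106 bases before the start (chr17:45555584-45555613, plus strand), the Rel match 92 bases before (chr11:23771041-23771071, minus strand) and the Nfkb2 stretch shown 39 bases before (chr19:46304688-46304718, plus strand). The Bcl3 match begins 2 bases after the start. These are matches of letters and not measured binding, and the expression values below were made by the authors on mm9, whose positions are given for each gene and were not converted.

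Genes were tested if any library reached an FPKM of 3, and 6 of the 10 did: Nfkb1, Rel, Rela, Nfkbia, Nfkbiz and Tnfaip3. By limma with Benjamini-Hochberg adjustment over 6364 genes, 1 was higher in BMDM (Nfkb1), where 45.3% of all tested genes were, and 1 was higher in BSM (Nfkbiz), where 9.22% were. In the ALEXA-Seq table the same 6 genes were among the 6364 tested and again 1 was called in each direction, against 37.1% and 10.9% of all genes. Further scaling of the libraries changed the counts. Upper quartile scaling gave 1 member higher in BMDM and 1 in BSM in FPKM, against 21.7% and 16.5% of all genes, and 1 and 2 in ALEXA-Seq, against 18.9% and 18.2%. Quantile normalization gave 1 member higher in BMDM and 2 in BSM in FPKM, against 21.7% and 19.3% of all genes, and 1 and 3 in ALEXA-Seq, against 22.6% and 21.2%. Scaling all libraries to one sum gave 1 and 3 in FPKM, against 15.2% and 24.9%, and 0 and 3 in ALEXA-Seq, against 13.2% and 30.2%. Without BSM replicate 1, and with no further scaling, 2 were higher in BMDM and 1 in BSM in FPKM, against 50.2% and 11.6%, and 1 and 2 in ALEXA-Seq, against 48.4% and 14.2%. Of all 10 genes, 5 had every BMDM library above every BSM library in both tables, 1 the reverse, and 4 overlapped. Of the 6 tested, 3 had BMDM above BSM in each table, 1 the reverse and 2 overlapped. Among all tested genes, 55.2% had BMDM wholly above BSM in FPKM and 11.6% the reverse, and in ALEXA-Seq 51.5% and 14.6%.

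**Figure D1:**
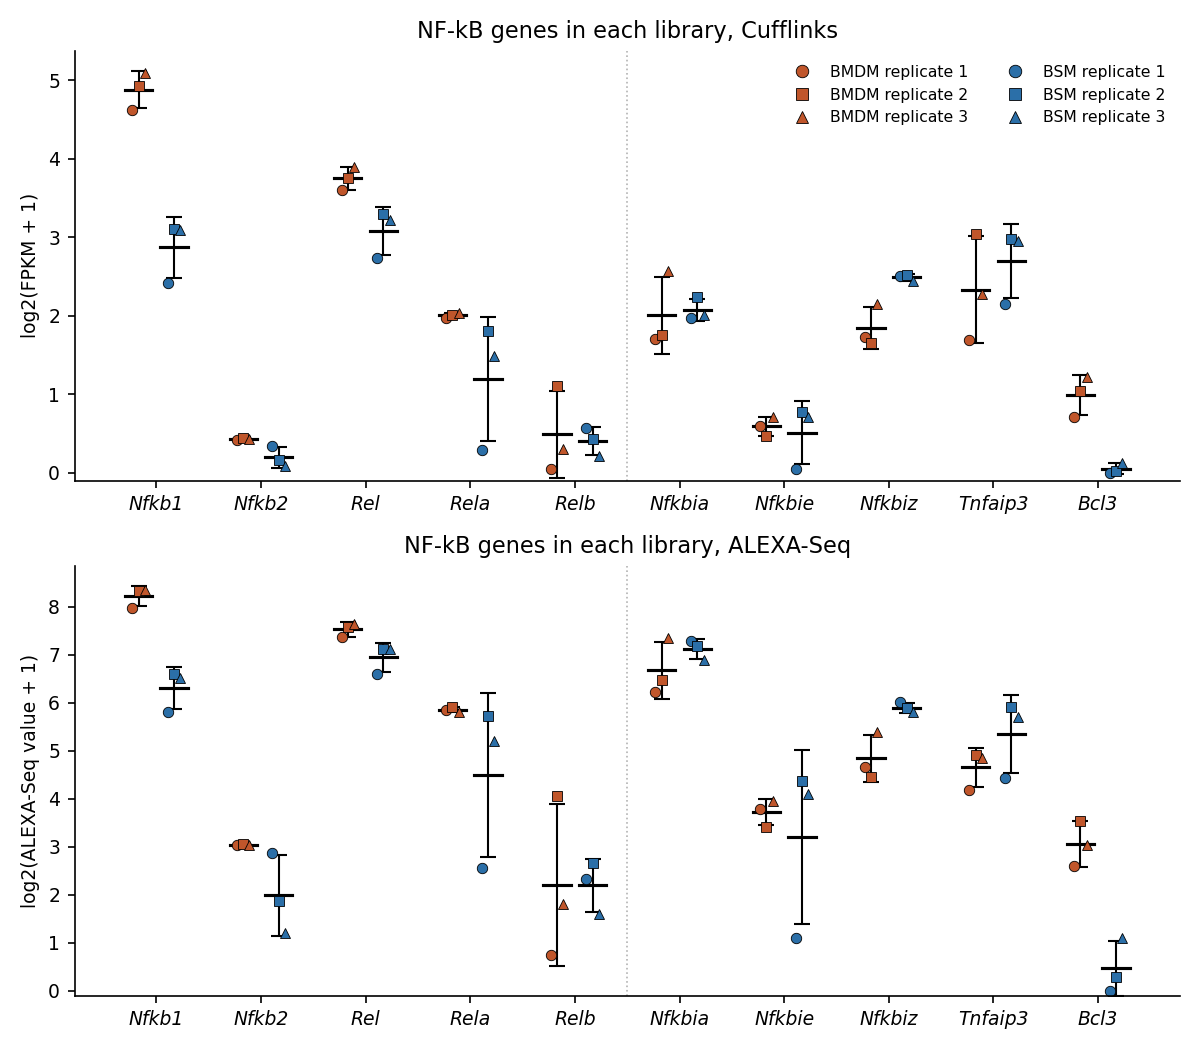
Each point is 1 library, as log2(FPKM + 1) in the upper panel and log2(ALEXA-Seq value + 1) in the lower panel, for the 5 subunit genes left of the dotted line and the 5 inhibitor genes right of it, with the mean and SD of the 3 libraries of each cell type. Nfkb1, Nfkb2, Rel, Rela and Bcl3 have BMDM wholly above BSM, Nfkbiz has BSM wholly above BMDM, and BSM replicate 1 lies far below its group for Rela and Nfkbie.

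Nfkb1 (chromosome 3, 135247619 to 135354511, mm9), which encodes the precursor of the p50 subunit, was at 23.6, 29.5 and 33.0 FPKM in BMDM replicates 1, 2 and 3 and at 4.36, 7.60 and 7.53 in BSM. The lowest BMDM library was thus well above the highest BSM library, and BSM replicate 1 was the lowest of all. The means were 28.7 ± 4.71 and 6.50 ± 1.85 (SD, n = 3), a log2 fold change of 2.01 on the log2(FPKM + 1) scale (SE 0.28, 95% CI 1.37 to 2.65, limma adjusted p = 0.000773). Set against the shift of all genes, Nfkb1 stood 1.20 above the median log2 fold change, at percentile 85.7 of the tested genes. ALEXA-Seq gave 251, 322 and 324 in BMDM and 54.7, 96.6 and 89.9 in BSM, a log2 fold change of 1.92 (limma adjusted p = 0.00183). When every library was scaled to the same sum, the log2 fold change was 0.80 in FPKM (limma adjusted p = 0.0495) and 0.64 in ALEXA-Seq (adjusted p = 0.120), so that the call was lost in the second table.

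Rel (chromosome 11, 23641514 to 23670970), the gene of c-Rel, the subunit most tied to blood cells, was at 11.2, 12.5 and 13.8 FPKM in BMDM and at 5.66, 8.83 and 8.32 in BSM. Every BMDM library was above every BSM library, by a smaller margin than for Nfkb1. The log2 fold change was 0.67 (SE 0.25, 95% CI 0.09 to 1.24, limma adjusted p = 0.0510), just short of the threshold, and it lay 0.14 below the median of all genes. Without BSM replicate 1 it was 0.49 and was called (limma adjusted p = 0.0417). The sign depended on the scaling, with -0.12 under quantile normalization and -0.53 once libraries were scaled to the same sum (limma adjusted p = 0.706 and 0.117), and ALEXA-Seq gave 0.58 without further scaling (adjusted p = 0.0786).

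Rela (chromosome 19, 5637483 to 5648130) encodes p65, the subunit that carries most of the transactivating activity of classical NF-kB. It was at 2.93, 3.03 and 3.10 FPKM in BMDM, within a narrow range, and at 0.229, 2.48 and 1.80 in BSM. The gap between the cell types came mostly from BSM replicate 1, the library with the most genes listed at 0. With all libraries the log2 fold change was 0.81 (SE 0.40, 95% CI -0.11 to 1.74, limma adjusted p = 0.118), and without BSM replicate 1 it was 0.36 (adjusted p = 0.145). Rela passed the filter only through BMDM replicates 2 and 3, and its log2 fold change stood at percentile 50.2 of all tested genes.

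Nfkb2 and Relb encode the subunits of the alternative NF-kB pathway, and both stayed below the filter. Nfkb2 (chromosome 19, 46379238 to 46386580, where it overlaps Psd) was at 0.335, 0.367 and 0.354 FPKM in BMDM and at 0.269, 0.123 and 0.0599 in BSM. All BMDM values were above all BSM values, but the fit without a filter gave a log2 fold change of 0.24 (limma adjusted p = 0.137), 0.21 above the median of that fit. Relb (chromosome 7, 20191566 to 20214787) was at 0.0392, 1.16 and 0.238 FPKM in BMDM and at 0.484, 0.349 and 0.163 in BSM, so that the cell types overlapped and BMDM replicate 2 was the highest. BMDM replicate 2 also had the highest sums of granulocyte and lymphocyte markers, and their part in the Relb value was not tested. With an FPKM minimum of 1 the log2 fold change of Relb was 0.08 (limma adjusted p = 0.835), 0.49 under the median of that fit (0.58).

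Summed over the 5 subunits, the Rel family came to 45.0 ± 6.33 FPKM in BMDM and 16.1 ± 4.47 in BSM (SD, n = 3). The make-up of that sum, which does not move when a whole library is scaled, differed between the cell types. Nfkb1 made up 62.0%, 63.3% and 65.3% of it in BMDM and 39.6%, 39.2% and 42.1% in BSM, whereas Rel made up 29.3%, 26.9% and 27.4% in BMDM and 51.5%, 45.5% and 46.6% in BSM. Nfkb1 was thus the leading subunit RNA in all 3 BMDM libraries and Rel in all 3 BSM libraries. The share of Rela was 6.78% ± 0.801 in BMDM and 8.32% ± 5.57 in BSM, and the shares of Rela, Nfkb2 and Relb each overlapped between the cell types. The FPKM of Nfkb1 divided by that of Rel, a ratio added after the values were seen, was 2.12, 2.36 and 2.38 in BMDM and 0.770, 0.861 and 0.905 in BSM, a 2.70-fold difference of means. In ALEXA-Seq the same ratio differed 2.53-fold. These shares and ratios are descriptions with no test.

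**Figure D2:**
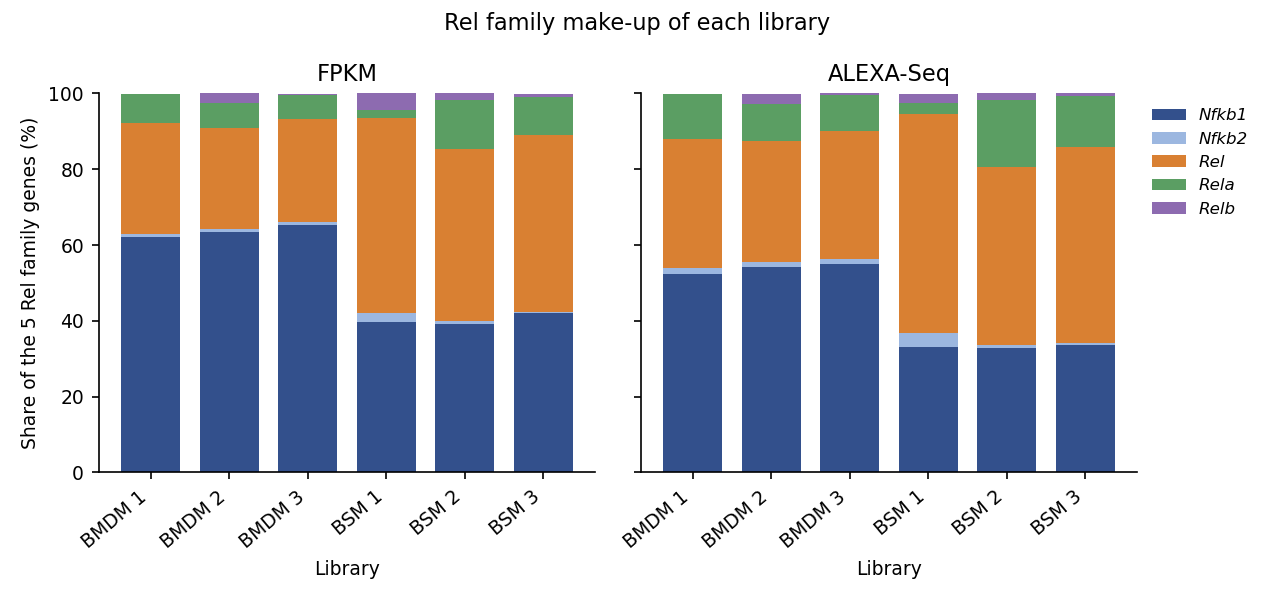
Each bar is 1 library and shows the percentage that each of the 5 subunit genes takes of their summed level, from FPKM on the left and ALEXA-Seq values on the right. Nfkb1 takes 62.0% to 65.3% in BMDM and 39.2% to 42.1% in BSM by FPKM, and Rel takes the larger share in BSM in both tables.

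Nfkbia (chromosome 12, 56590404 to 56593544) encodes IkB alpha, the inhibitor that is destroyed and made anew in each round of NF-kB activity. It was at 2.25, 2.37 and 4.95 FPKM in BMDM and at 2.92, 3.70 and 3.03 in BSM. The BSM values all fell between the lowest and the highest BMDM value, with BMDM replicate 3 far above the other 2. The log2 fold change was -0.06 (SE 0.30, 95% CI -0.76 to 0.63, limma adjusted p = 0.870), which lay 0.87 below the median of all genes, at percentile 22.9. In ALEXA-Seq Nfkbia was at 73.6, 87.6 and 162 in BMDM and at 155, 145 and 118 in BSM, a log2 fold change of -0.44 (limma adjusted p = 0.305). After quantile normalization it was -0.83 in FPKM (adjusted p = 0.0556) and -1.16 in ALEXA-Seq (adjusted p = 0.0209). Scaling to the same sum gave a call in both tables, with -1.07 in FPKM (limma adjusted p = 0.0250) and -1.72 in ALEXA-Seq (adjusted p = 0.00779).

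Nfkbiz (chromosome 16, 55811488 to 55839012) encodes IkB zeta, a nuclear member of the IkB family that acts on a subset of NF-kB targets and is itself induced. It was at 2.31, 2.14 and 3.42 FPKM in BMDM and at 4.66, 4.73 and 4.43 in BSM. All BSM libraries were above all BMDM libraries, and the BSM values were close together. The means were 2.63 ± 0.697 and 4.61 ± 0.157 (SD, n = 3), a log2 fold change of -0.65 (SE 0.24, 95% CI -1.20 to -0.10, limma adjusted p = 0.0496), which lay 1.45 below the median of all genes, at percentile 12.8. In ALEXA-Seq it was at 24.4, 20.97 and 41.0 in BMDM and 63.5, 58.0 and 54.8 in BSM, with a log2 fold change of -1.06 (limma adjusted p = 0.0418). The FPKM call was at the edge of the threshold. Leaving out any library but BSM replicate 1 ended it (adjusted p from 0.0662 to 0.140). No filter, a minimum of 1 and female libraries only ended it too (adjusted p = 0.0682, 0.0561 and 0.0830). The ALEXA-Seq call ended without BMDM replicate 1 or 2 or BSM replicate 2 or 3 (limma adjusted p from 0.0915 to 0.118). It also ended with no filter, a pseudocount of 0.1 and female libraries only (adjusted p = 0.0742, 0.0503 and 0.0784). In FPKM, quantile normalization gave -1.47 (limma adjusted p = 0.00168) and scaling to the same sum -1.68 (adjusted p = 0.00160).

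Tnfaip3 (chromosome 10, 18720716 to 18735463) encodes A20, an enzyme that edits ubiquitin on signalling proteins upstream of the IkB kinases and so dampens the pathway. It was at 2.22, 7.22 and 3.84 FPKM in BMDM and at 3.44, 6.88 and 6.76 in BSM. The cell types overlapped, and the spread within BMDM was wide, with the highest value in BMDM replicate 2, the library with the highest granulocyte and lymphocyte sums. The part of those cells in that value was not tested. The log2 fold change was -0.36 (SE 0.40, 95% CI -1.29 to 0.56, limma adjusted p = 0.464), which lay 1.17 below the median of all genes. In ALEXA-Seq it was at 17.3, 29.1 and 28.0 in BMDM and at 20.5, 59.5 and 51.3 in BSM, so that BSM replicate 1 alone reached into the BMDM range. The log2 fold change there was -0.70 (limma adjusted p = 0.268) with all libraries and -1.16 (adjusted p = 0.0164) without BSM replicate 1. After quantile normalization it was -1.16 in FPKM (limma adjusted p = 0.0346) and -1.85 in ALEXA-Seq (adjusted p = 0.00679).

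Nfkbie (chromosome 17, 45692652 to 45700115) encodes IkB epsilon, a further cytoplasmic inhibitor, and did not pass the filter. It was at 0.519, 0.387 and 0.634 FPKM in BMDM and at 0.0375, 0.714 and 0.634 in BSM. The cell types overlapped, with BSM replicate 1 again the lowest. The fit without a filter gave a log2 fold change of 0.08 (limma adjusted p = 0.833), 0.051 above the median of that fit.

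Bcl3 (chromosome 7, 20393811 to 20408119) encodes a nuclear IkB protein that binds dimers of p50 or of p52. It was at 0.644, 1.06 and 1.33 FPKM in BMDM, while in BSM it was listed at 0 in replicate 1 and was at 0.0164 and 0.0957 in replicates 2 and 3. The means were 1.01 ± 0.347 and 0.0374 ± 0.0512 (SD, n = 3), all of them low. Bcl3 did not pass the filter of 3. With an FPKM minimum of 1, its log2 fold change was 0.94 (SE 0.22, limma adjusted p = 0.0102), in a fit where 37.2% of 9637 genes were higher in BMDM and 7.66% in BSM. That change lay 0.36 above the median of the fit, and Bcl3 passed the lower minimum only through BMDM, the group where it is high. It overlaps 2 other Ensembl entries, so reads could be shared among them.

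**Figure D3:**
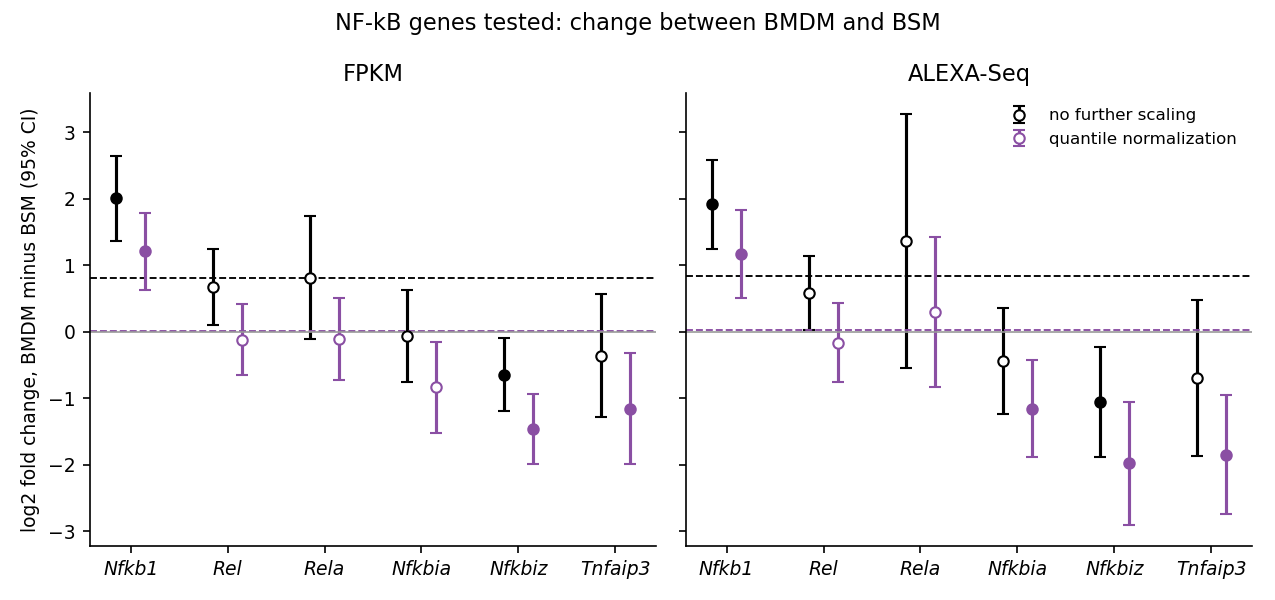
Points are limma log2 fold changes, BMDM minus BSM, with 95% confidence intervals for the 6 tested genes, in black without further scaling and in purple after quantile normalization. Filled points have an adjusted p under 0.05, and the dashed lines mark the median of all tested genes, at 0.81 in FPKM and 0.84 in ALEXA-Seq without further scaling. Nfkb1 lies above the median in both settings and both tables, and Nfkbia, Nfkbiz and Tnfaip3 lie below it.

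The 5 inhibitor genes summed to 7.93, 13.2 and 14.2 FPKM in BMDM and 11.1, 16.0 and 14.9 in BSM, which overlapped, although the Rel family sum was 2.80-fold higher in BMDM. Divided by the Rel family sum of the same library, they came to 0.208, 0.283 and 0.281 in BMDM and 1.01, 0.828 and 0.837 in BSM. Every BSM library was thus above every BMDM library, with means of 0.257 ± 0.0426 and 0.890 ± 0.1001 (SD, n = 3). Such ratios are also free of the scaling of a library, and they are given as a description with no test. By single genes, the ratio was 5.25-fold higher in BSM for Nfkbiz, 3.61-fold for Tnfaip3 and 3.01-fold for Nfkbia, each without overlap. For Nfkbie the cell types overlapped. Bcl3 was the exception, at 0.0220 ± 0.00478 of the Rel family sum in BMDM and 0.00207 ± 0.00288 in BSM. In ALEXA-Seq the summed ratio was 3.40-fold higher in BSM. The scale of ALEXA-Seq values between genes is not stated, so their sums weigh the genes in an unknown way.

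Because Nfkb1 makes up most of the Rel family sum in BMDM, the ratios were also taken to Rel alone, a choice made after the values were seen. Nfkbiz was at 0.207, 0.171 and 0.248 of Rel in BMDM and at 0.824, 0.536 and 0.533 in BSM, 3.03-fold higher in BSM. Tnfaip3 was at 0.199, 0.577 and 0.278 in BMDM and at 0.607, 0.779 and 0.813 in BSM, 2.09-fold higher, with BMDM replicate 2 close to BSM replicate 1. For Nfkbia the values were 0.201, 0.190 and 0.358 in BMDM and 0.516, 0.420 and 0.364 in BSM, 1.74-fold higher, with BMDM replicate 3 just under BSM replicate 3. All 3 genes kept BSM above BMDM without overlap, and with smaller folds than against the whole family.

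**Figure D4:**
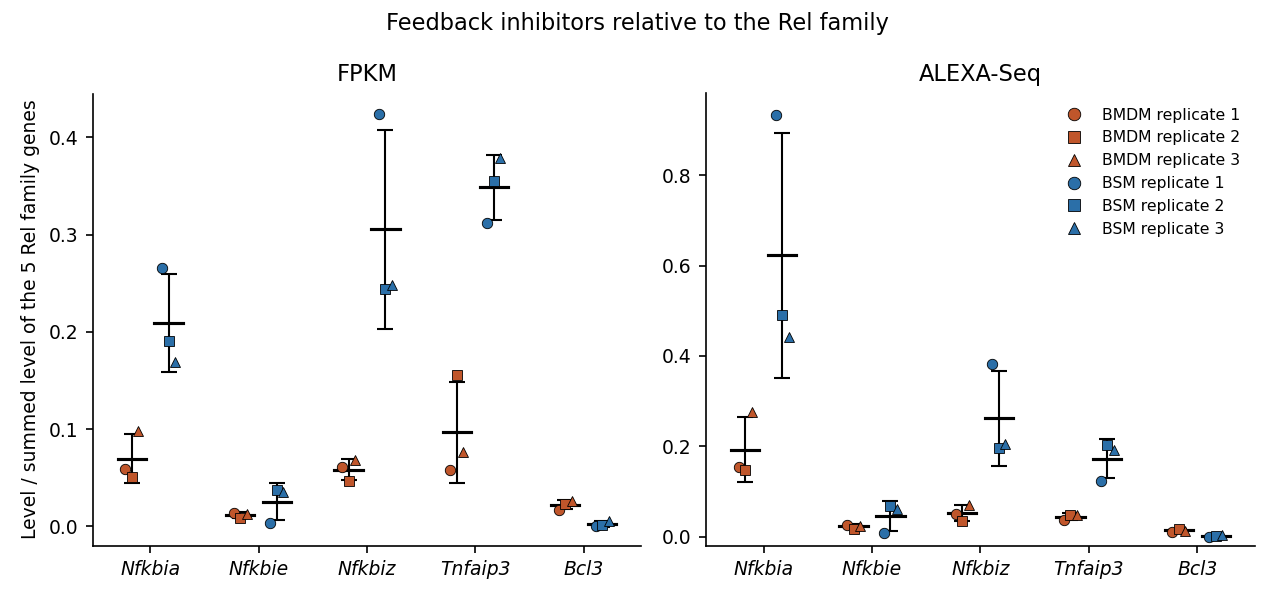
Each point is the level of an inhibitor gene divided by the summed level of the 5 Rel family genes in the same library, with the mean and SD of the 3 libraries of each cell type, from FPKM on the left and ALEXA-Seq values on the right. Nfkbia, Nfkbiz and Tnfaip3 are higher in all BSM libraries than in any BMDM library, Nfkbie overlaps, and Bcl3 is higher in BMDM.

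Ordered by mean FPKM, BMDM had Nfkb1 at 28.7, Rel at 12.5, Tnfaip3 at 4.43, Nfkbia at 3.19, Rela at 3.02 and Nfkbiz at 2.63. The libraries of Nfkb1 and Rel did not overlap, nor did those of Rel and Tnfaip3, while Tnfaip3, Nfkbia, Rela and Nfkbiz each overlapped with the next in order. Below them came Bcl3 at 1.01, without overlap with Nfkbiz or with Nfkbie at 0.513, and then Relb at 0.479 and Nfkb2 at 0.352. BSM had Rel at 7.60, Nfkb1 at 6.50, Tnfaip3 at 5.69 and Nfkbiz at 4.61, each overlapping with the next. Nfkbia at 3.22 was separate from Nfkbiz above it and from Rela at 1.504 below it. The lowest were Nfkbie at 0.462, Relb at 0.332, Nfkb2 at 0.1504 and Bcl3 at 0.0374, again with overlap between neighbours.

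Upstream of the subunits, a list of 24 IkB kinases, adaptors and ubiquitin enzymes had 13 tested genes. Of these, 5 were higher in BMDM (45.3% of all genes were) and 0 in BSM (9.22% were) by limma. At an unadjusted p under 0.05 by limma the counts were 7 and 0, against 3891 of all 6364 genes in either direction. The median log2 fold change of the 13, 0.70, lay close to the 0.81 of all genes. Ikbkb, the kinase of the classical pathway, was at 49.3 ± 7.42 FPKM in BMDM and 20.4 ± 2.85 in BSM, a log2 fold change of 1.23 (limma adjusted p = 0.00325). Birc3, a ubiquitin ligase of TNF receptor signalling, was at 12.7 ± 0.974 and 3.21 ± 0.299, a log2 fold change of 1.70 (adjusted p = 0.000502). Malt1 and Ripk1, which relay antigen receptor and TNF receptor signals, had log2 fold changes of 1.41 and 1.36 (limma adjusted p = 0.00182 and 0.0139). The fifth was the ligase gene Traf6, at 0.69 (limma adjusted p = 0.0335), named after its value was seen. Traf6 alone of the 5 reached the FPKM minimum in BMDM only, the group where it is high. Of the other kinase genes, Chuk was at 11.0 ± 1.59 and 6.70 ± 2.66 (limma adjusted p = 0.0987) and Map3k14, the kinase of the alternative pathway, at 2.13 ± 0.623 and 0.754 ± 0.569, below the filter. Ikbkg, the regulatory subunit NEMO, went the other way in FPKM, at 3.10 ± 1.46 in BMDM and 5.23 ± 0.705 in BSM (log2 fold change -0.67, limma adjusted p = 0.113), but its cell types overlapped in ALEXA-Seq. Quantile normalization left 2 genes of the list higher in BMDM, where 21.7% of all genes then were, and 1 higher in BSM, where 19.3% were. Scaling to the same sum turned the calls to 0 in BMDM and 3 in BSM, where 15.2% and 24.9% of all genes were. Without BMDM replicate 2 or 3 the list had 3 calls, all higher in BMDM, where 2313 and 2037 of all 6364 genes were.

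Of 19 other inhibitors, 10 were tested, and 2 were higher in BMDM (45.3% of all genes were) and 0 in BSM (9.22% were) by limma. At an unadjusted p under 0.05 by limma there were 3 and 0, against 3891 of all 6364 genes in either direction. The median log2 fold change of the 10 was 0.86. The genes called were Tax1bp1, a partner of A20, with a log2 fold change of 1.38 (limma adjusted p = 0.00430), and Tnip1, another partner of A20, with 1.20 (adjusted p = 0.0352). Tnip1 was highest in BMDM replicate 1, with 5.72, 2.00 and 1.75 FPKM in BMDM and 0.986, 0.346 and 0.713 in BSM. It passed the minimum through that library only, in the group where it is high, and was not among the tested ALEXA-Seq genes. Nfkbib, the gene of IkB beta, was at 2.61 ± 1.52 and 1.33 ± 1.04 FPKM (limma adjusted p = 0.294), and Nfkbid, a nuclear IkB, at 0.871 ± 0.287 and 0.154 ± 0.131, below the filter. Cyld, a deubiquitinase that damps the pathway, was at 9.002 ± 1.66 and 4.82 ± 3.41 (adjusted p = 0.138). In ALEXA-Seq 1 of the 10 tested was higher in BMDM and 1 in BSM, against 37.1% and 10.9% of all genes. The one higher in BSM, named after its value was seen, was Otud7b, a deubiquitinase gene (log2 fold change -1.83, limma adjusted p = 0.0195), which was below the filter in FPKM. Entries tested in ALEXA-Seq reached 37.4 or more in some library. Otud7b did so in BSM only, the group where it is high, and was at most 15.3 in BMDM. After quantile normalization of FPKM none of the 10 was called by limma. At an unadjusted p under 0.05 there was 1, against 3175 of all 6364 genes. There was 1 call without BMDM replicate 1 and also without BSM replicate 3.

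Of 30 genes known as NF-kB targets, 29 were in the FPKM table and 9 were tested, and their median log2 fold change was -0.81 against 0.81 for all genes. Among the 9, 1 was higher in BMDM and 5 were higher in BSM, where 45.3% and 9.22% of all genes were. Of these 6 genes, 4 reached the minimum in BSM only and 1 in BMDM only, so that the filter itself favoured a difference, and the count does not speak for the list. Over all 29 genes, 6 had BMDM wholly above BSM, 8 the reverse and 15 overlapped. Among all tested genes 55.2% had BMDM wholly above BSM and 11.6% the reverse. Most of the 29 were not tested, so these shares are not a matched background. Without a filter, 4 of 27 were higher in BMDM (14.9% of all genes were) and 6 in BSM (3.36% were). In ALEXA-Seq 8 of 12 tested were higher in BSM, against 10.9% of all genes. Entries tested there were taken by their highest value in any library, which was 37.4 or more. Il1a and Plau, for instance, reached that in BSM only, so this count does not speak for the list either. Quantile normalization, upper quartile scaling and scaling to the same sum each gave 7 of the 9 FPKM genes higher in BSM and 0 in BMDM, where 19.3%, 16.5% and 24.9% of all genes were then higher in BSM. These are the same 9 filtered genes, and the same limit holds. Il1a, the gene of interleukin-1 alpha, was at 13.7, 15.7 and 16.4 FPKM in BSM and at most 0.0877 in BMDM (log2 fold change -3.97, limma adjusted p = 9.44e-06). Plau, the gene of urokinase, was at 10.3 ± 3.85 in BSM and 1.81 ± 0.259 in BMDM (log2 fold change -1.96, adjusted p = 0.00117), and the adhesion gene Icam1 at 4.07 ± 1.45 and 1.81 ± 0.0449 (-0.81, adjusted p = 0.0409). The other 2 in BSM, named after their values were seen, were the survival genes Cflar (-1.28, limma adjusted p = 0.00201) and Bcl2l1 (-1.13, adjusted p = 0.0496), of which Bcl2l1 overlapped between the cell types in FPKM, and Cflar in ALEXA-Seq, where it was not called (-0.53, adjusted p = 0.121). Sod2, the mitochondrial superoxide dismutase gene, was higher in BMDM (1.41, limma adjusted p = 0.0116), but was not called in ALEXA-Seq (adjusted p = 0.0630). Of the targets below the filter, the receptor gene Cd40 was at 1.13 ± 0.332 FPKM in BMDM and 0.00515 ± 0.00892 in BSM, and the chemokine gene Cxcl10 at 1.66 ± 0.418 and 0.127 ± 0.220, both without overlap and named after their values were seen. The classical inflammatory targets Tnf and Il1b stayed low in both cell types, with Tnf at 0.343 ± 0.0682 FPKM in BMDM and 0.259 ± 0.0245 in BSM and Il1b at most 0.341 in any library.

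Immediate early genes, which respond within minutes to many stimuli and to cell dissociation, differed between the same libraries. The 14 genes of that list summed to 212 to 450 FPKM in BMDM and 983 to 1648 in BSM. Zfp36, named after its values were seen, gave the largest part of the sum in every library. It was at 157, 200 and 335 FPKM in BMDM and 939, 653 and 573 in BSM. Of the 11 tested, 7 were higher in BSM (9.22% of all genes were) and 0 in BMDM (45.3% were) by limma. At an unadjusted p under 0.05 by limma there were 7 and 0 too, against 3891 of all 6364 genes in either direction. Of the 7 called, 4 reached the FPKM minimum in BSM only, Egr1 and Fosb among them, as did 5 of the 11 tested. The filter itself thus favoured a difference, and the count does not speak for the list. Over all 14, 8 had BSM wholly above BMDM (11.6% of all tested genes did), 5 overlapped, and 1 had BMDM above BSM (55.2% did). That gene, named after its values were seen, was Nr4a1, an orphan nuclear receptor gene, at 0.637, 0.782 and 1.34 FPKM in BMDM and listed at 0, then 0.112 and 0.0395 in BSM, below the filter. Egr1 had a log2 fold change of -6.46, Btg2 of -3.78, Jun of -3.31 and Fosb of -1.97 (limma adjusted p from 3.40e-06 to 0.00404). Fos was at 7.73, 16.7 and 23.4 FPKM in BMDM and 30.9, 18.5 and 18.7 in BSM, which overlapped (limma adjusted p = 0.264). Within BMDM, replicate 3 had both the highest immediate early sum and the highest Nfkbia and Nfkbiz. Within BSM, replicate 1 had the highest immediate early sum and the lowest Nfkbia in FPKM, though the highest in ALEXA-Seq. Nfkbiz in BSM replicate 1 lay between the other BSM libraries in FPKM and was the highest in ALEXA-Seq. Tnfaip3 was highest within BMDM in replicate 2 and lowest within BSM in replicate 1, in both tables. The part of a response to sorting in the levels of the NF-kB inhibitors was not tested.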

How the data were processed

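RNA-Seq values of 3 BMDM and 3 BSM libraries were analysed, grouped by the sample labels. The authors removed ribosomal reads, aligned with TopHat and deposited gene FPKM from Cufflinks, and the submitters' processing notes name TopHat 1.3.1, Bowtie 0.12.7, Cufflinks 1.0.3, CASAVA 1.7.0 and mm9. The authors also deposited an ALEXA-Seq expression signal on a linear scale, whose normalization is not given in the sources used here. Neither table holds whole reads, so the depth behind a value is unknown and no count test was used. Both pipelines used the same libraries and are not independent. The libraries were made with an amplification method not described as stranded. Starts of gene spans were read as counted from 0 and are printed from 1.

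Values were compared with limma 3.58.1 in R 4.3.3 (empirical Bayes with a mean-variance trend, log2(value + 1), positive toward BMDM) for the 6364 genes that reached an FPKM of 3 in any library, and for the 6364 ALEXA-Seq entries with the highest values. P-values were adjusted by Benjamini-Hochberg over all genes tested, with a threshold of 0.05. They measure the spread between 3 sorted sets a group. An exact permutation test of 1 gene cannot go below 0.1 here. The step was tested on simulated data. Folds are ratios of group means. Python 3.11.15 with pandas 2.3.3, numpy 2.4.6 and matplotlib 3.10.9 was used for tables and plots.

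The members and lists (IkB kinases and adaptors, other inhibitors, targets, immediate early genes and cell type markers) were chosen with earlier results of these data known. All members are named. Of the 4 pathway lists, up to 4 genes in each direction with the largest change are named if called in FPKM and without overlap in either table, plus Chuk, Ikbkb, Ikbkg, Map3k14, Nfkbib, Nfkbid, Tnip1, Cyld, Tnf, Il1b and Fos. Alternatives were quantile normalization, scaling by the upper quartile or to the same sum, a pseudocount of 0.1, a lower FPKM minimum (1) or no filter, no trend, library quality weights, a replicate block and each library left out, and, chosen after seeing the data, female libraries only and an FPKM minimum of 1 with quantile normalization. Exon arrays were not analysed here.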

Additional observations from a re-analysis of the deposited data

How the results depend on the processing

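Of 10 genes, 2 were called in FPKM. The count was 1 with a pseudocount of 0.1, without the trend and with a replicate block, 4 with scaling to the same sum and with library quality weights, and 1 to 3 with a library left out. In ALEXA-Seq 2 were called, against 1 with a pseudocount of 0.1 or a replicate block, 4 with quantile normalization or library quality weights, and 1 to 3 with a library left out. IkB kinases and adaptors went from 5 calls, all higher in BMDM, to 3 with each further scaling. With upper quartile scaling or quantile normalization, 2 were higher in BMDM and 1 in BSM. With scaling to the same sum, 0 were higher in BMDM and 3 in BSM. There were 8 calls with weights, and 3 to 7 with a library left out. The lowest counts were without BMDM replicate 2 or 3 and the highest without BSM replicate 1. Other inhibitors went from 2 calls to 4 without a filter or with weights, all of them higher in BMDM. An FPKM minimum of 1 gave 6, with 5 higher in BMDM and 1 in BSM. Scaling to the same sum gave 1, higher in BSM, where 24.9% of all genes were. With a library left out there were 1 to 3. Upper quartile scaling and quantile normalization gave 0 by limma. At an unadjusted p under 0.05 they gave 0 and 1, against 3082 and 3175 of all 6364 genes. Targets went from 6 calls (1 higher in BMDM and 5 in BSM) to 10 without a filter (4 and 6) or with a minimum of 1 (3 and 7), and to 4 to 7 with a library left out. Calls among all 6364 genes ranged from 2498 to 3932 with a library left out, against 3470 with all 6. They were 3224 with a pseudocount of 0.1, 3461 without the trend and 3471 with a replicate block. Upper quartile scaling gave 2431, quantile normalization 2605 and scaling to the same sum 2553. No filter gave 3876 of 21167 and a minimum of 1 gave 4323 of 9637. In ALEXA-Seq 3050 of 6364 were called, and 2788 with quantile normalization. Weights called 4703 in FPKM and 5362 in ALEXA-Seq, so most genes were called there.

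The log2 fold change of Rel turned to -0.11 with upper quartile scaling, to -0.12 with quantile normalization at either FPKM minimum and to -0.53 with scaling to the same sum, and in ALEXA-Seq to -0.15, -0.16 and -0.69. That of Rela turned to -0.11 with quantile normalization and to -0.00484 with scaling to the same sum, and that of Relb to -0.35 with an FPKM minimum of 1 and quantile normalization. That of Nfkbia, near 0, turned to 0.13 with weights (0.19 in ALEXA-Seq) and to 0.041 in female libraries, and ranged from -0.35 to 0.091 with a library left out. None of these turned values reached an adjusted p under 0.05 by limma, and the cause was not tested. Nfkb1 stayed higher in BMDM in every alternative run and lost its call only in ALEXA-Seq with scaling to the same sum. The difference in the Nfkb1 share of the Rel family between BMDM and BSM, 23.2 percentage points, was 20.8 in ALEXA-Seq and 22.4 to 24.1 with a library left out, and the inhibitor ratio stayed between 3.16 and 3.64.

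Deviations of same-numbered libraries from their group means had correlations of -0.02, -0.01 and 0.13 across genes, against -0.11 to 0.07 for other pairs. With 3 libraries a group, this check cannot exclude that same-numbered sets belong together. The main fit did not pair them. The replicate block ended the Nfkbiz call (limma adjusted p = 0.0749 in FPKM and 0.0729 in ALEXA-Seq). Depth per gene is unknown, so levels near 0, such as Bcl3 in BSM, cannot be told from failed estimates.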
